A study of Homo sapiens with 6 samples.

Results

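The 48 genes described here encode the subunits, activators and assembly factors of the proteasome, together with the transcription factor gene NFE2L1. They were taken by symbol (PSMA, PSMB, PSMC, PSMD, PSME, PSMF and PSMG, plus POMP and NFE2L1) from the 17534 genes that probe sets of Affymetrix PrimeView arrays name alone. Where several probe sets read a gene, the brightest on average was kept, and the 48 genes have 121 probe sets between them. PSMC3IP, a cofactor of meiotic recombination, and PSME3IP1, which encodes a protein that binds PSME3, match by symbol only and are no parts of the particle. PSMA6, PSMC5, PSMD7 and PSMD13 were not analysed here.

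RNA came from MM.1R, a human multiple myeloma line resistant to glucocorticoids. On 3 arrays the cells had been given epirubicin hydrochloride, an anthracycline that poisons topoisomerase II, and the other 3 hold cells carrying a control hairpin vector (shCtrl). The labels give the vector for shCtrl alone, which means that effects of drug and of vector cannot be told apart, and neither dose nor time of treatment is given. Separate cultures are not mentioned for the arrays within a group, and p-values measure only the spread between these arrays, which may be technical.

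The proteasome is a barrel of stacked alpha and beta rings, the core particle, capped by a regulatory particle that binds ubiquitin chains, removes them and unfolds the substrate. Interferon replaces its catalytic beta subunits with inducible ones, giving the immunoproteasome, which cuts peptides for MHC class I. Plasma cells and myeloma cells secrete large amounts of antibody, load the proteasome heavily, and are treated with proteasome inhibitors. NFE2L1 is an endoplasmic reticulum protein that the proteasome normally destroys. When proteasome activity drops it is cut and released, and it then activates the subunit genes.

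With epirubicin most proteasome genes lay slightly lower, while NFE2L1 lay higher. Below, a gene is said to have fallen or risen at a Benjamini-Hochberg adjusted p under 0.05 in limma, whatever its fold. On that rule 27 of the 48 genes fell and 3 rose, where 13.5% and 15.6% of all genes did. The rule of the series' design text also asks for a change of at least 1.3-fold (0.379 on the log2 scale), and on it 0 of 48 fell and 0 rose in limma, against 2.14% and 4.36% of all genes. At an unadjusted p under 0.05 in limma, 30 members lay lower and 3 lay higher, where 17.8% and 21.5% of all genes did. Over the 48 genes the median log2 fold change was -0.15, against 0.02 over all genes.

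**Figure D1:**
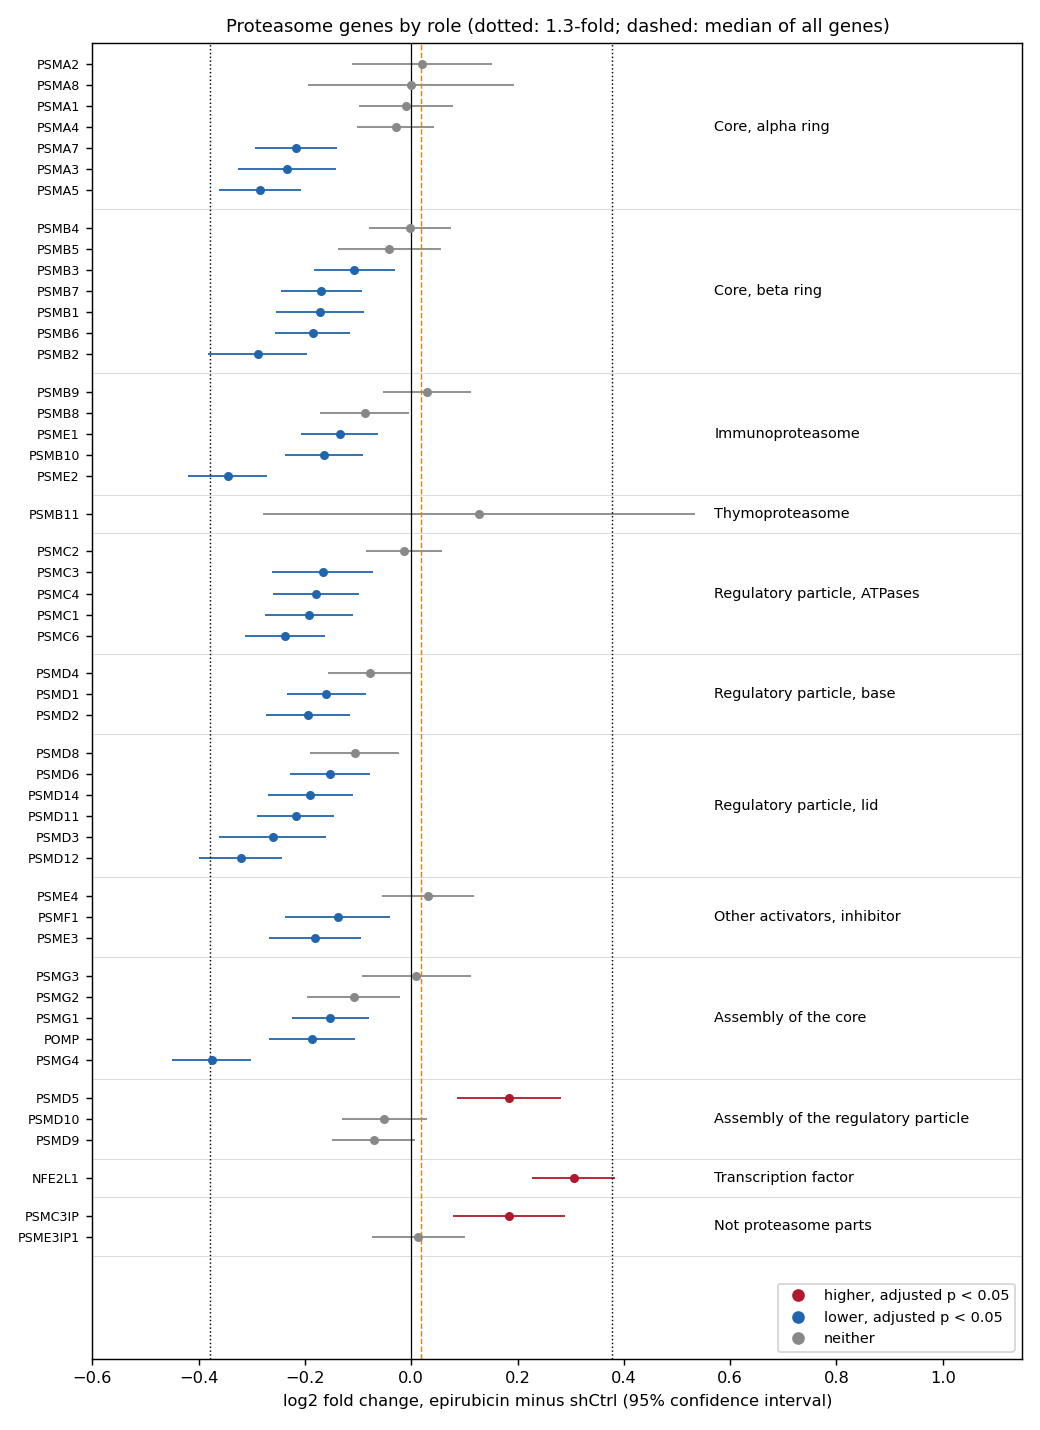
Log2 fold change (epirubicin minus shCtrl, horizontal axis) of each of the 48 genes, grouped by role, with limma's 95% confidence interval over 3 arrays a group. Most points lie left of 0 and inside the dotted 1.3-fold lines, and NFE2L1 at 0.31 lies farthest to the right.

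The arrays themselves separate on these genes. On all 3 epirubicin arrays 32 of the 48 genes lay below all 3 shCtrl arrays, and 3 lay above, where 20.1% and 23.8% of all genes did. Without NFE2L1, the 2 symbol matches and the dim PSMA8 and PSMB11, 43 genes remain. Their mean deviation from each gene's own 6-array mean was -0.089, -0.052 and -0.066 on the epirubicin arrays, against 0.072, 0.056 and 0.079 on the shCtrl arrays. The median deviation of all genes stayed between -0.009 and 0.017 on the 6 arrays.

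Bright genes as a whole lay slightly lower with epirubicin, and proteasome genes are bright. Of 4385 genes with a mean log2 value from 8 to 12, 30.4% fell and 22.0% rose, with a median fold change of -0.03 and an interquartile range of -0.15 to 0.10. Of the 45 members in that range 27 fell and 3 rose, with a median of -0.15. Cyclic loess normalization removes a shift that depends on brightness and was chosen after the data were seen. With it 25 members fell, where 11.7% of all genes did, and 3 members rose. The members' median was then -0.10, against 0.02 for all genes. In bulk RNA fewer cells of a type and less RNA per cell cannot be told apart, and the arrays report each gene relative to the bulk of transcripts.

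**Figure D2:**
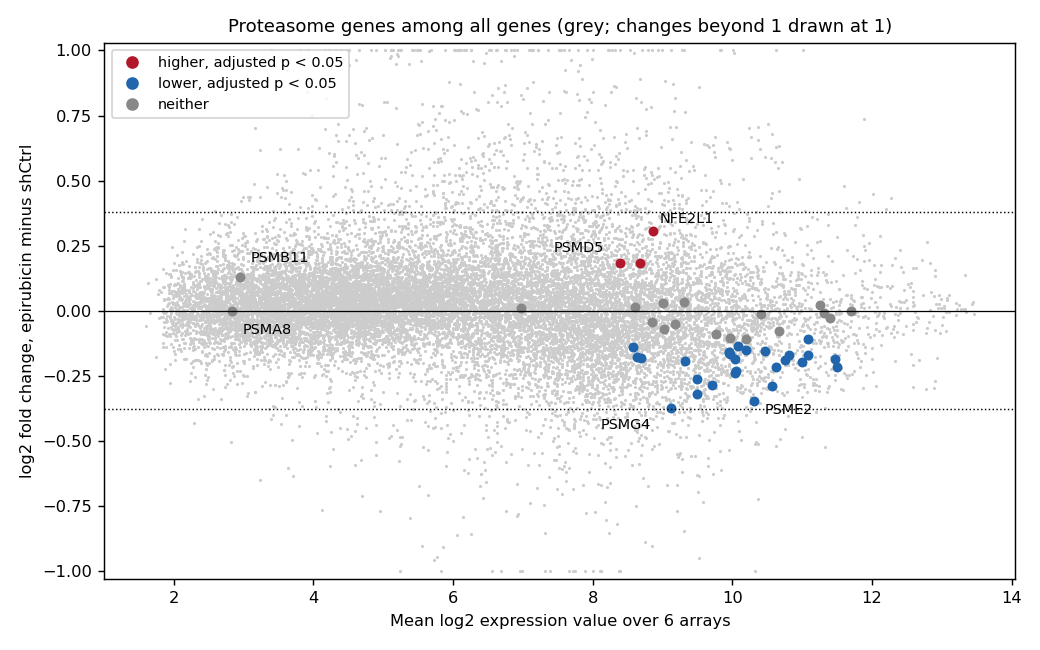
Log2 fold change (epirubicin minus shCtrl, vertical axis) against the mean log2 value over 6 arrays, for all 17534 genes (grey) and the 48 proteasome genes (coloured). The blue points, genes that fell, form a band between the zero line and the lower 1.3-fold line, and PSMA8 and PSMB11 lie far to the left at low values.

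In the core particle 8 of the 14 constitutive alpha and beta genes fell and 0 rose, with a median of -0.14. Without the dim PSMA8 it was 8 of 13, with a median of -0.17. PSMA5, a subunit of the alpha ring, which gates entry to the barrel, had log2 values of 9.56, 9.56 and 9.58 on the epirubicin arrays, against 9.85, 9.88 and 9.82 on the shCtrl arrays. The groups did not overlap, and the gene fell by 0.28 (SE 0.03, limma adjusted p = 0.00109), a change of -17.9%. PSMB2, a beta ring subunit without catalytic activity, had 10.37, 10.47 and 10.45 with epirubicin, against 10.72, 10.69 and 10.74 in shCtrl. It fell by 0.29 (SE 0.04, limma adjusted p = 0.00211), and all 3 of its probe sets fell.

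The other alpha ring genes that fell were PSMA3 (-0.23) and PSMA7 (-0.22). PSMA1, PSMA2 and PSMA4, which are among the brightest members, did not pass the test, with log2 fold changes of -0.01 (CI -0.10 to 0.08), 0.02 (CI -0.11 to 0.15) and -0.03 (CI -0.10 to 0.04). PSMA8, a subunit of the testis, was dim on every array, with a mean log2 value of 2.83 in each group. In the beta ring PSMB1 (-0.17) and PSMB3 (-0.11) fell as well, PSMB3 close to the threshold (limma adjusted p = 0.0462). In a fit over all probe sets the single probe set of PSMB3 did not pass (limma adjusted p = 0.0715). PSMB4 was at -0.003 (CI -0.08 to 0.07). The 95% confidence intervals (CI) of PSMB4 and of these alpha genes lie within a change of 1.3-fold.

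Of the 3 constitutive catalytic subunits 2 fell and 1 did not pass, and differences between them were not tested. PSMB5 carries the chymotrypsin-like activity that bortezomib blocks. It had log2 values of 8.77, 8.87 and 8.87 on the epirubicin arrays, against 8.90, 8.88 and 8.85 on the shCtrl arrays, and the groups overlapped (log2 fold change -0.04, CI -0.14 to 0.06, limma adjusted p = 0.506). None of its 5 probe sets passed, and the value was -0.007 without epirubicin replicate 1. PSMB6, with caspase-like activity, had 11.36, 11.36 and 11.39 with epirubicin, against 11.56, 11.55 and 11.56 in shCtrl, and fell by 0.19 (SE 0.03). PSMB7, with trypsin-like activity, had 10.70, 10.72 and 10.76, against 10.91, 10.88 and 10.89 in shCtrl, and fell by 0.17 (SE 0.03); 3 of its 5 probe sets fell. As a mean over all 5, PSMB7 changed by -0.06 and did not pass (limma adjusted p = 0.306).

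Of the 5 immunoproteasome genes 3 fell, 0 rose and 2 did not pass. PSME2, the beta chain of the ring-shaped activator that opens the core without ATP, fell most. Its log2 values were 10.11, 10.13 and 10.15 on the epirubicin arrays, against 10.46, 10.48 and 10.50 on the shCtrl arrays. The groups lay far apart for so small a spread, and the gene fell by 0.35 (SE 0.03, limma adjusted p = 0.000476), a change of -21.3%. PSME1, the alpha chain of that activator, had 9.99, 10.02 and 10.01, against 10.14, 10.13 and 10.16 in shCtrl. It fell by 0.13 (SE 0.03, limma adjusted p = 0.0164). That call was lost without epirubicin replicate 1 (adjusted p = 0.0508), epirubicin replicate 3 (0.0522) or shCtrl replicate 3 (0.0604), and with a replicate block (0.0656).

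PSMB10, the inducible subunit that takes the place of PSMB7, fell by 0.16 (SE 0.03), and all 3 of its probe sets fell, with 9.84, 9.89 and 9.88 on the epirubicin arrays against 10.04, 10.03 and 10.03 on the shCtrl arrays. PSMB8, which takes the place of PSMB5, had 9.67, 9.74 and 9.75 with epirubicin, against 9.80, 9.80 and 9.83 in shCtrl. Its epirubicin arrays all lay below, but it did not pass (log2 fold change -0.09, CI -0.17 to -0.004, limma adjusted p = 0.113). It did pass, at adjusted p = 0.011 and 0.0396, with an intensity trend in limma's prior and with dim genes left out. With the mean of all probe sets it was at -0.005 (adjusted p = 0.928) and with quantile normalization at -0.053 (0.285). PSMB9, which takes the place of PSMB6, had 9.02, 9.03 and 9.01, against 9.03, 9.01 and 8.94 in shCtrl, and the groups overlapped (0.03, CI -0.05 to 0.11). PSMB11, the catalytic subunit of the thymus, was dim, at mean log2 values of 3.01 and 2.88 in epirubicin and shCtrl arrays.

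Each inducible subunit was set against the constitutive one it replaces, as the log2 difference between the genes on each array. Only its change between groups is read, since levels of different probe sets are not comparable. For PSMB9 minus PSMB6 the values were -2.34, -2.33 and -2.38 on the epirubicin arrays, against -2.54, -2.54 and -2.62 on the shCtrl arrays. The difference moved up by 0.22, and all 3 epirubicin arrays lay above all 3 shCtrl arrays. Most of that shift was the change of PSMB6 (-0.19), while PSMB9 itself was at 0.03 with overlapping groups. The two-sided exact permutation p was 0.1, the lowest possible with 3 arrays a group, and 0.3 adjusted over 3 pairs. PSMB8 minus PSMB5 moved by -0.05 (exact p = 0.2, adjusted 0.3; -0.060 to -0.025 without 1 array) and PSMB10 minus PSMB7 by 0.006 (exact p = 0.8, adjusted 0.8). The sign of those small shifts depended on the probe sets used, and no pair could reach 0.05 in this design.

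**Figure D3:**
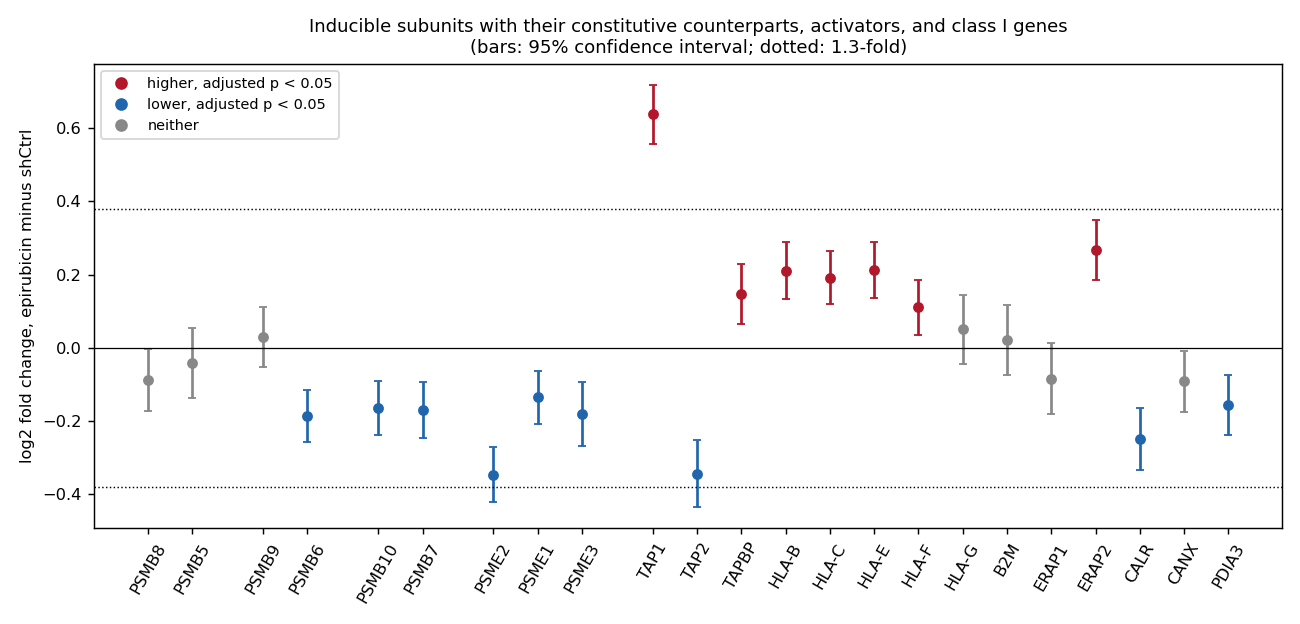
Log2 fold change (epirubicin minus shCtrl, with limma's 95% confidence interval, n = 3 arrays a group) of each inducible subunit beside its constitutive counterpart, of the activators, and of 14 MHC class I genes. TAP1 is the gene above the upper 1.3-fold line, whereas PSMB9, PSMB8 and PSMB5 have intervals that reach to or near 0.

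The regulatory particle had the largest share of genes that fell, 11 of 14, with 0 risen and a median of -0.19; all 14 fold changes were below 0. The share was not tested against that of the core. PSMD12, a scaffold subunit of the lid, had 9.30, 9.36 and 9.33 on the epirubicin arrays, against 9.67, 9.66 and 9.63 on the shCtrl arrays. The groups did not overlap, and it fell by 0.32 (SE 0.03, limma adjusted p = 0.000738) with all 4 probe sets falling. PSMD3 (-0.26), PSMD11 (-0.22) and PSMD6 (-0.15), other scaffold subunits of the lid, fell too. PSMD14, the deubiquitinase that cuts the ubiquitin chain from the substrate, fell by 0.19, and by 0.28 on its other probe set. PSMD8, another lid subunit, was at -0.11 and missed the threshold (limma adjusted p = 0.0646). It passed with median centring (0.0338), with dim genes left out (0.0183) and with an intensity trend (0.00227).

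In the base 4 of 5 ATPase genes fell. PSMC6 led them, with log2 values of 9.91, 9.94 and 9.93 on the epirubicin arrays, against 10.13, 10.17 and 10.18 on the shCtrl arrays, a fall of 0.24 (SE 0.03). PSMC1 (-0.19), PSMC4 (-0.18) and PSMC3 (-0.17) followed. PSMC2, also an ATPase of the ring, overlapped between groups at -0.01 (CI -0.09 to 0.06). PSMD2 and PSMD1, the large scaffold subunits of the base, fell by 0.20 and 0.16. PSMD4, a ubiquitin receptor, was at -0.08 (CI -0.16 to 0.002, limma adjusted p = 0.133), although its epirubicin arrays all lay below its shCtrl arrays. It passed with dim genes left out (0.0492) and with an intensity trend (0.00895).

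Of the 5 genes for assembly of the core 3 fell and 0 rose, and of the 3 for the regulatory particle 0 fell and 1 rose. PSMG4, a chaperone of alpha ring assembly, had the largest fall of the 48 members when each gene was read by its brightest probe set. It had log2 values of 8.93, 8.91 and 8.96 on the epirubicin arrays, against 9.30, 9.30 and 9.32 on the shCtrl arrays, with no overlap. It fell by 0.375 (SE 0.03, limma adjusted p = 0.000326), a change of -22.9%, just short of the 1.3-fold line at 0.379. Of its 6 probe sets 5 fell, and the dimmest, at a mean log2 value of 4.65, was at 0.14. As a mean over all probe sets PSMG4 changed by -0.26, less than PSME2 (-0.35), PSMB2 (-0.31) and PSMD12 (-0.29). POMP, the chaperone that matures the core, had 9.95, 9.93 and 9.93, against 10.09, 10.12 and 10.17 in shCtrl, and fell by 0.19 (SE 0.03). PSMG1 fell by 0.15, PSMG2 was at -0.11 and short of the threshold (limma adjusted p = 0.0695), and PSMG3 was at 0.01 (CI -0.09 to 0.11).

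PSMD5, a chaperone of the base of the regulatory particle, rose. Its log2 values were 8.54, 8.48 and 8.42 on the epirubicin arrays, against 8.31, 8.27 and 8.31 on the shCtrl arrays, a rise of 0.18 (SE 0.04, limma adjusted p = 0.0158) without overlap. The call was lost without shCtrl replicate 2 (adjusted p = 0.0552) and, with probe sets ending _s_at left out, on its other probe set (0.15, adjusted p = 0.172). PSMD9 and PSMD10, the other chaperones of the base, were at -0.07 (CI -0.15 to 0.008) and -0.05 (CI -0.13 to 0.03). The genes that rose were thus the chaperone PSMD5, NFE2L1 and PSMC3IP (0.18, SE 0.04), and none of these 3 encodes a subunit of the particle.

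Of the remaining activators, PSME3, which forms a nuclear activator ring, fell by 0.18 (SE 0.04), with 8.57, 8.64 and 8.58 on the epirubicin arrays against 8.75, 8.78 and 8.81 on the shCtrl arrays. Its other probe sets fell by 0.30 and 0.35, and the mean of all 3 by 0.28. PSMF1, a protein that binds the core and was first described as its inhibitor, fell by 0.14 with an adjusted p of 0.0459 in limma, close to the threshold; in a fit over all probe sets 0 of its 6 passed. PSME4, a large single-chain activator, was at 0.03 (CI -0.05 to 0.12).

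NFE2L1 rose while most members fell. It had log2 values of 8.996, 9.03 and 9.01 on the epirubicin arrays, against 8.69, 8.69 and 8.74 on the shCtrl arrays. It rose by 0.31 (CI 0.23 to 0.38, limma adjusted p = 0.000847), or 23.6%, without overlap. All 6 of its probe sets had fold changes above 0, from 0.13 to 0.45, and 5 of them rose. Over the 121 probe sets of all members 53 fell (13.3% of all 47481 probe sets did) and 8 rose (11.8%). Past 1.3-fold there were 2 lower, 1 each of PSMB2 and PSMG4, and 1 higher, of NFE2L1, against 2.62% and 3.65% of all probe sets.

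**Figure D4:**
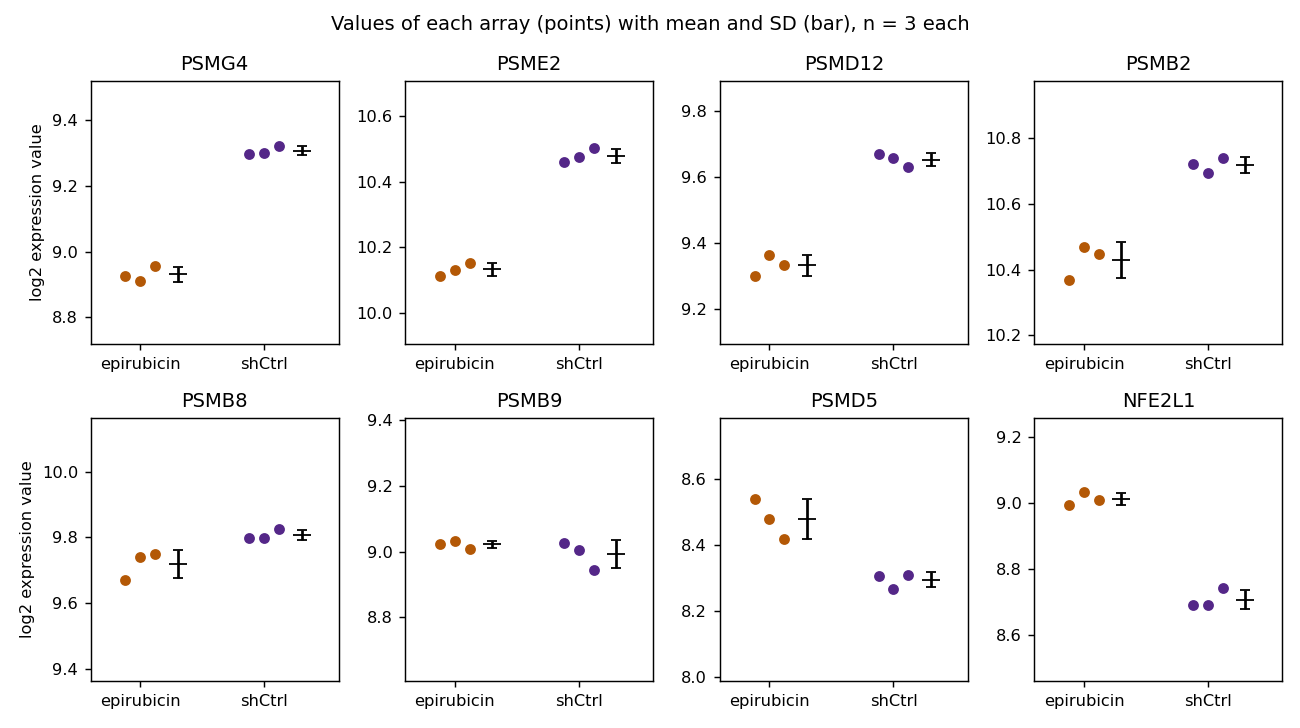
Log2 values of 8 proteasome genes on each array (points; epirubicin left, shCtrl right) with the group mean and SD (n = 3); every vertical axis spans the same range of 0.8. PSMG4, PSME2, PSMD12 and PSMB2 lie lower on all epirubicin arrays, PSMD5 and NFE2L1 lie higher, and PSMB9 overlaps.

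The upstream sequences of 5 members are shown as examples, with 3 of the largest falls, 1 inducible subunit that did not pass and the chaperone that rose. NFE2L1, the member with the largest rise, is not among them. They are the 250 bases before the RefSeq gene start (build GRCh38.p14), 5′ to 3′ on the strand of the gene. Capitals mark matches, on either strand, to the antioxidant response element that NFE2L1 and NFE2L2 bind (TGACNNNGC), the interferon-stimulated response element (GAAA, any 2 bases, GAAA), the ETS motif (CCGGAAG) and the CCAAT box (CCAAT).
PSMG4, chr6:3258697-3258946, plus strand: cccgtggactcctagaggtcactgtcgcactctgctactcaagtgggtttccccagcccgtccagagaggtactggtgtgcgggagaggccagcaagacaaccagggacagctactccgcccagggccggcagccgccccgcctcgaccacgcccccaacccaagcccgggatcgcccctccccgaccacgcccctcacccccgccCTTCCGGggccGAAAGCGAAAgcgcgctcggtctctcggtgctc
PSME2, chr14:24146611-24146860, minus strand: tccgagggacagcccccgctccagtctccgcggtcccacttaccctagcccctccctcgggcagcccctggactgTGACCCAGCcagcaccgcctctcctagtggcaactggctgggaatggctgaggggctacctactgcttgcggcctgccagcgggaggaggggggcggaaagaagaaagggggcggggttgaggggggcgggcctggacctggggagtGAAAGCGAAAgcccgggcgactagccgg
PSMD12, chr17:67366578-67366827, minus strand: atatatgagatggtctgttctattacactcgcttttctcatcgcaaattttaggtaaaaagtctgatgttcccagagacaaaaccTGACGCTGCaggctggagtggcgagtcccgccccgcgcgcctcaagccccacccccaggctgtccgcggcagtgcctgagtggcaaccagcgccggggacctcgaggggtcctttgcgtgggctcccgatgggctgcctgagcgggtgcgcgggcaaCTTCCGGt
PSMB9, chr6:32853942-32854191, plus strand: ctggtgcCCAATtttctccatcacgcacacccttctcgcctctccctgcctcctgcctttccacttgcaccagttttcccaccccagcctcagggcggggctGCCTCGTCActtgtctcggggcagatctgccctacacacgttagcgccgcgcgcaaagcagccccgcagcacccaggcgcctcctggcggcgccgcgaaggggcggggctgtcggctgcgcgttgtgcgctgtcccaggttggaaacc
PSMD5, chr9:120842923-120843172, minus strand: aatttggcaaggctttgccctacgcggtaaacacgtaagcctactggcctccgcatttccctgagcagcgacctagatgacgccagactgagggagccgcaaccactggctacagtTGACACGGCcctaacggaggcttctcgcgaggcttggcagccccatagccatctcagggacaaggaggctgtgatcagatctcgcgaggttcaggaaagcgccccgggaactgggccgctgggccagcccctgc

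In PSMG4 and PSME2, the members with the largest falls on their brightest probe sets, the interferon-stimulated element ends 24 and 19 bases before the start. The antioxidant response element lies on the strand of the gene in PSME2 and PSMD12, which fell, and in PSMD5, which rose, ending 167, 157 and 126 bases before the start, and on the other strand in PSMB9. A promoter entry was found for 42 of the 48 members, and none for PSMA7, PSMB1, PSMB6, PSMB7, PSMD4 and PSMG3. TGACNNNGC was present in 12 of the 42 (28.6%) and in 10.9% of all 35116 promoters. For each motif a member counted if any of its promoter entries matched, whereas all promoters were counted entry by entry. Members with several entries had more chances of a match, which makes these shares unlike measures. Of those 12 genes 6 fell and 1 rose, with a median of -0.11, and of the 30 without it 17 fell, with a median of -0.16. The interferon-stimulated element was present in 5 (11.9%, against 3.02% of all promoters). Of those 5 genes 3 fell, with a median of -0.16, and of the 37 without it 20 fell, with a median of -0.14; PSMA4 and PSMB4 carry it and did not pass. CCGGAAG was present in 13 (31.0%, against 8.52%) and CCAAT in 20 (47.6%, against 32.0%). In 0 of the 52 promoter entries of these 42 genes did matches of different motifs overlap. A match describes the letters alone.

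Partners of the particle that lie outside the symbol rule moved in the same range. Of 16 measured genes 9 fell and 1 rose, with a median of -0.14, and 0 reached 1.3-fold. ECPAS, which holds core and regulatory particle together, fell by 0.31, and RAD23B, a shuttle that brings ubiquitinated proteins, by 0.30. The deubiquitinases UCHL5 and USP14, which sit on the regulatory particle, fell by 0.29 and 0.25. ADRM1, a ubiquitin receptor of the base, had 10.55, 10.58 and 10.62 on the epirubicin arrays, against 10.74, 10.70 and 10.76 on the shCtrl arrays, and fell by 0.15 (SE 0.03, limma adjusted p = 0.0179). AKIRIN2, which carries the proteasome into the nucleus, rose by 0.17. Of 3 genes for ubiquitin and its activating enzymes, UBA1 fell by 0.13, and UBB and UBA6 did not pass.

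Genes that process or partner NFE2L1 were mixed, with 4 of 15 lower, 5 higher and a median of 0.01. DDI2, the protease that cuts NFE2L1, passed the 1.3-fold rule downward. It had log2 values of 5.49, 5.36 and 5.31 on the epirubicin arrays, against 5.72, 5.85 and 5.87 on the shCtrl arrays, near the median of all values (5.54), on 1 of 4 probe sets (log2 fold change -0.43, SE 0.06). VCP, the ATPase that pulls NFE2L1 from the membrane, fell by 0.26, and NGLY1, which removes its sugars, by 0.14. The small MAF partners MAFF and MAFG rose by 0.32 and 0.21, and the relative NFE2L2 by 0.17.

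MHC class I genes present the peptides that the immunoproteasome cuts. Of 14 measured, 7 rose and 3 fell, with a median of 0.08. TAP1, a chain of the peptide transporter that shares a bidirectional promoter with PSMB9, had 10.02, 10.03 and 10.06 on the epirubicin arrays, against 9.42, 9.36 and 9.42 on the shCtrl arrays. It rose 1.56-fold (log2 fold change 0.64, SE 0.03, limma adjusted p = 6.25e-05), and it was the 1 gene of this list past 1.3-fold. TAP2, the other chain of the transporter, fell by 0.34 (SE 0.04). HLA-B and HLA-E rose by 0.21 each and the trimming peptidase gene ERAP2 by 0.27.

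Of 15 interferon signalling genes 7 rose and 0 fell. The inhibitor gene SOCS1 (0.78, SE 0.05; 1 of 2 probe sets) and STAT3 (0.55, SE 0.04; 2 of 3) passed 1.3-fold. IRF1 and NLRC5, direct activators of immunoproteasome and class I genes, did not pass, with 0.09 (CI 0.01 to 0.18) and 0.14 (CI 0.007 to 0.27); their limma adjusted p-values were 0.0943 and 0.111. SEM1, a small subunit of the lid, was not analysed here.

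Cell identity was checked on marker lists. Of 14 plasma cell markers 13 lay above the median of all values on average, and their log2 summed level was 15.38 on all epirubicin arrays, against 15.41 to 15.42 on the shCtrl arrays. At any fold 5 of the 14 fell and 3 rose, and past 1.3-fold there were 2 lower, the surface enzyme CD38 (-1.18) and the plasma cell transcription factor IRF4 (-0.49). Markers of other cells, with 1 to 3 of 7 to 12 genes above the median, included 3 of 11 myeloid genes past 1.3-fold upward (ITGAM, CD68 and S100A9), 2 of 10 stromal genes and 1 of 7 dendritic cell genes. The log2 summed level of the myeloid list was 8.85 to 8.94 with epirubicin and 8.07 to 8.13 in shCtrl, and ITGAM, an integrin chain, rose by 3.75 on the log2 scale. Over the 6 arrays the mean log2 values of the 11 myeloid genes ran from 1.85 (FCGR3A) to 7.18 (CD68). LYZ was at 2.45, CD14 at 2.87, CSF1R at 5.07, MPO at 5.21 and S100A9 at 5.25, and 1 of the 11 lay above the median of all values. The part of these markers in the proteasome values was not tested. Across probe sets, which are not independent, the correlation was 0.99821 to 0.99847 within a group and 0.9945 to 0.99473 between groups.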

How the data were processed

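The authors' deposited log2 values (47481 probe sets, 6 arrays) were used without further normalization. Their scale was read from the values, 1.41 to 13.73, and array medians were 5.52 to 5.57. The affy package is named in the submitters' processing notes. How background, normalization and probe summary were handled is not stated in those notes or the labels. No detection calls or scan dates entered, and precision is limited by having 3 arrays a group.

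Symbols came from the platform annotation (43976 probe sets with 1 gene, 1558 with several, 1947 with none), updated through Entrez numbers against RefSeq GRCh38.p14 (43954 matched). Groups and replicate numbers came from sample titles. All 17534 genes were fitted in limma 3.58.1 (R 4.3.3; lmFit, eBayes) with Benjamini-Hochberg adjustment. The fit was also run on simulated data with small and large falls. Its pass condition used the large falls alone, which exceed the change of any member, so passing it does not bear on these calls. Recovery of the small falls is not reported here. Pairs of subunits were compared by exact permutation in scipy 1.17.1.

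Named are all called members, the immunoproteasome and catalytic genes, POMP, NFE2L1, the extremes of each role and, of other lists, up to 4 called genes and 6 preset ones. Other genes were named after their values were seen. Members and lists were chosen with earlier results of these data known.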

Additional observations from a re-analysis of the deposited data

How the results depend on the processing

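Across 14 alternatives, 20 of the 27 genes that fell kept an adjusted p under 0.05 in limma in each alternative that measured them, and PSMC1, PSMC6 and PSME2 among them were not measured once probe sets ending _s_at or _x_at were left out. Of the 3 that rose, NFE2L1 alone kept it. The 7 lost in at least 1 alternative were PSMB3, PSMB7, PSMC3, PSMC4, PSMD6, PSME1 and PSMF1. Fewer arrays gave 23 to 26 lower and 1 to 3 higher, the 1 without shCtrl replicate 2. At 1.3-fold the count of genes lower was 1 with median centring (PSMG4) and 0 to 1 without 1 array (1 without epirubicin replicate 3, shCtrl replicate 1 or shCtrl replicate 2), and with no fold threshold 27 lower and 3 higher. Median centring gave 29 lower, where 16.7% of all genes were lower, and an intensity trend 31 of 48, where 16.9% were. Leaving out dim genes gave 31 of 46, where 28.1% of the genes kept were lower. A replicate block gave 22 lower and 3 higher, where 10.4% of all genes were lower. Same-numbered arrays deviated with correlations of -0.033, 0.017 and 0.001, and 1 of 6 correlated best with its own number. The main fit did not pair them. Correlations over all probe sets cannot tell whether same-numbered arrays share a culture or batch that affects some genes. PSMB8 minus PSMB5 turned to 0.065 with the mean of all probe sets. PSMB10 minus PSMB7 turned to -0.121 with that mean and -0.024 without _s_at and _x_at probe sets, and ran from -0.007 to 0.017 without 1 array. Signs also turned for genes near 0, none past the threshold: PSMA2 (-0.005 with the mean of probe sets, -0.012 with median centring), PSMB9 (-0.003), PSME4 (-0.001) and PSMG3 (-0.023) with median centring, PSME4 (-0.032) without _s_at and _x_at probe sets, PSMC2 (0.019) with quantile normalization, and PSMB4 (0.034), PSMB5 (0.001) and PSMC2 (0.027) with cyclic loess. Without 1 array PSMA2 ran from -0.031 to 0.063, PSMB4 from -0.012 to 0.012, PSMB11 from -0.056 to 0.253 and PSMG3 from -0.023 to 0.037. The cause was not tested. Over the settings the members' median ran from -0.178 to -0.104 and lay 0.121 to 0.183 below that of all genes.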

Other observations

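Members that lie close together in the genome did not share 1 value. PSME1 and PSME2 both lie on chromosome 14 and encode chains of the same activator ring. PSME2 fell by 0.35 (CI -0.42 to -0.27) and PSME1 by 0.13 (CI -0.21 to -0.06), with intervals that do not overlap. The difference itself was not tested. In the class II region of chromosome 6, PSMB8 (-0.09) and PSMB9 (0.03) are neighbours of TAP2 (-0.34) and TAP1 (0.64).

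Probe sets of 1 gene disagreed in PSMB7, PSMB8 and PSME4, examples chosen after their values were seen. In PSMB7 the 3 bright probe sets lay between -0.17 and -0.14, while 2 dim ones with mean log2 values of 5.68 and 4.21 were at -0.03 and 0.22. In PSMB8 a probe set at a mean of 3.14 was at 0.13, against -0.09 for the brightest. In PSME4 a probe set at a mean of 7.20 rose by 0.23, against 0.03 for the brightest, at 9.30.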
